A study of Rattus norvegicus with 12 samples.

Results

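The genes described here are 39 rat genes of the integrated stress response and of amino acid supply, chosen by name. They fall into 7 role groups: transcription factors of the ATF4 arm, feedback and effector genes, serine synthesis and mitochondrial one-carbon enzymes, proline synthesis, asparagine, alanine and cysteine supply, amino acid carriers, and cytosolic tRNA synthetases. Probes were matched to the genes through their RefSeq transcript accession, and the brightest probe above background stood for a gene. A probe was matched for 38 of the 39 genes. No probe was matched for Slc7a1, a carrier of cationic amino acids, so its expression was not analysed here. Stc2, a secreted glycoprotein, was not well above background on any array. The other 37 genes were above background on all 12 arrays and are the members described below, out of 20372 genes or transcripts tested, 10695 of them named.

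The cells were primary hepatocytes from male Sprague Dawley rats, bought cryopreserved from a supplier and kept in culture for 24 h before the exposure. Each compound was given at 30 µM for 24 h: triclosan, diclosan, or 1-chloro-3-(4-chlorophenoxy) benzene, abbreviated CCPB below. Controls received DMSO, the solvent. Each of the 4 groups had 3 one-colour Agilent arrays, described as independent experiments. The labels do not say whether these came from separate animals, so p-values measure the spread between these samples only. Triclosan is a chlorinated diphenyl ether with a phenolic hydroxyl group. Diclosan keeps that hydroxyl group and lacks a chlorine atom of triclosan. CCPB, by its name, has no hydroxyl group, and the chlorine of that ring stands at another position relative to the ether oxygen.

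The integrated stress response begins with kinases that phosphorylate the translation factor eIF2 when amino acids run short, unfolded protein builds up in the endoplasmic reticulum, haem is lacking or viral RNA is present. General translation then falls, while the mRNA of ATF4 is translated more. ATF4 is a transcription factor that induces further factors (ATF3, CHOP), feedback genes that restore translation or restrain mTORC1, enzymes that make serine, asparagine and proline, amino acid carriers, and tRNA synthetases. It binds many of these genes at C/EBP-ATF response elements. Because ATF4 itself is controlled largely at translation, the level of its mRNA is not a measure of its activity. In the liver the same pathway responds to dietary amino acid restriction and to inhibitors of mitochondrial respiration.

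A scaled level below is the log2 scanner signal minus the 75th percentile of that array, so that 0 is the 75th percentile. Levels are compared between arrays for 1 gene and not between genes. A difference is the first-named group's mean minus the second's in log2 units, with a 95% interval, and "rose" or "fell" is used where limma's Benjamini-Hochberg adjusted p over all 20372 genes was under 0.05. The arrays lay on 2 slides. Slide 1 held all triclosan and DMSO arrays and diclosan replicates 1 and 2. Slide 2 held diclosan replicate 3 and all CCPB arrays. CCPB therefore shares no slide with triclosan or DMSO, and its difference from them with slide as a block runs through the diclosan arrays alone. The median absolute difference over all genes was 0.0657 between diclosan replicates 1 and 2, whereas replicate 3 differed from each of them by 0.114. Over the members these medians were 0.0338, 0.0783 for replicates 1 and 3, and 0.0617 for replicates 2 and 3. All 12 hepatocyte markers, albumin and transthyretin among them, were above background. In these bulk samples fewer cells of a type and less RNA per cell cannot be told apart.

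Promoter windows are shown for the members whose values are given below and whose promoter holds the core of the C/EBP-ATF response element, TGATGNAA, searched on both strands. The promoters are those of RefSeq on GRCr8, from 250 bases before to 50 bases after the start of the gene, written 5′ to 3′ on the gene's strand. Each stretch shown spans up to 40 bases on either side of a match before the start, and ends no later than the start. Capitals mark the match, here in every case as its reverse complement. Aars1 holds another match after the start, which is not shown.
Chac1 (chr3:126795924-126796011, plus strand, match 167 bases before the start): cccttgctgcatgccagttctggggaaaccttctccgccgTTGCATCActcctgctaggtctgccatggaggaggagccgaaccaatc
Trib3 (chr3:161275534-161275594, minus strand, match 21 bases before the start): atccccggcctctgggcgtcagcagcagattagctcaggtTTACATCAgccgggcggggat
Aars1 (chr19:55908330-55908417, plus strand, match 112 bases before the start): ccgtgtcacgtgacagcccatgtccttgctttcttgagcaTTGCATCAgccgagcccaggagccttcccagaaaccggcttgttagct
Iars1 (chr17:15193653-15193716, minus strand, match 24 bases before the start): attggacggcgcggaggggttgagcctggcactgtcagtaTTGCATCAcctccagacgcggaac
Mars1 (chr7:65023754-65023810, minus strand, match 17 bases before the start): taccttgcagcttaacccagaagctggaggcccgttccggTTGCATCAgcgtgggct
Chac1, Aars1, Iars1 and Mars1 share the letters TTGCATCA, and Trib3 has TTACATCA. Of the 35 members with a promoter entry, 9 (25.7%) held a match, the other 4 being Nars1, Nupr1, Pycr1 and Slc7a1. Over all 33469 promoters the share was 3.98%. That share counts single promoter entries, whereas each of the 35 genes counts once if any of its entries holds a match. The endoplasmic reticulum stress element, CCAAT and CCACG with 9 bases of any kind between them, was in the windows of 0 of these 35 genes and in 22 of all promoters (0.0657%). A match is a run of letters and not a site shown to be bound.

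Triclosan against DMSO and diclosan against DMSO gave no call among the members. With triclosan 0 of 37 members passed limma's test, beside 0.0638% of all genes, and 7 had an unadjusted p under 0.05 (18.9%, against 11.6% of all genes). With diclosan 0 of 37 passed, beside 0.00982% of all genes, and 5 had an unadjusted p under 0.05 (13.5%, against 10.6%). The median difference of the members was -0.01 with triclosan and 0.01 with diclosan, and over all genes it was -0.01 and 0.00. In both comparisons the whole 95% interval lay within 0.5 log2 units of 0 for 36 of 37 members, the exception being Slc7a5. These 2 comparisons share the 3 DMSO arrays. With the slide as a block both counts were also 0 (at an unadjusted p under 0.05, 8 members with triclosan and 4 with diclosan, against 14.2% and 9.89% of all genes), beside 0.25% of all genes with triclosan and 0.0147% with diclosan.

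The members with the smallest p between triclosan and DMSO were Cth and Atf3. Cth, the enzyme that releases cysteine from cystathionine, had scaled levels of 2.70, 2.84 and 2.87 with triclosan, 2.71, 2.78 and 2.77 with diclosan, 2.84, 2.75 and 2.78 with CCPB and 2.44, 2.55 and 2.64 with DMSO. All 9 arrays of exposed cells were above all 3 DMSO arrays. The difference from DMSO was 0.26 with triclosan (interval 0.13 to 0.40, adjusted p = 0.159) and 0.21 with diclosan (interval 0.08 to 0.34, adjusted p = 0.299), neither passing the test. Atf3, a stress-induced factor of the ATF family, had 3.64, 3.65 and 3.68 with triclosan, 3.93, 3.83 and 3.91 with diclosan, 3.73, 3.64 and 3.73 with CCPB and 3.82, 3.79 and 3.87 with DMSO. The triclosan arrays lay below the DMSO arrays, with a difference of -0.17 (interval -0.26 to -0.08, adjusted p = 0.162). Between triclosan and diclosan the difference of Atf3 was -0.23 (interval -0.32 to -0.15, adjusted p = 0.211).

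Most members were lower with CCPB than with DMSO. Against DMSO 13 members fell and 2 rose, so that 15 of 37 (40.5%) were called, beside 28.2% of all genes. The share that fell was 35.1%, beside 14% of all genes, and the share that rose was 5.41%, beside 14.2%. The median difference was -0.11, against 0.01 over all genes, and 27 of 37 members were below 0. With the slide as a block all 15 differences kept their sign, but none of the 15 passed the test. The count was then 1 of 37 (2.7%), beside 3.43% of all genes, and 11 members had an unadjusted p under 0.05 (18% of all genes). The median of the members was -0.09, and the block values rest on diclosan replicate 3 alone as the link between the slides. The median absolute difference of the 15 was 0.32 by group only and 0.22 with the block. Over the 37 members the intervals had median half-widths of 0.10 and 0.17 in these fits. The sign turned with the block in 7 members, none of them called in either fit: Atf4, Nupr1, Trib3, Eif4ebp1, Gpt2, Nars1 and Eprs1. With normexp background correction 15 members fell and 6 rose, beside 3022 and 3213 of all genes. With arrays centred on their median 7 members fell and 1 rose, beside 1684 and 1626 of all genes. Without the filter on dim probes 7 members fell and 1 rose, and the share over all genes in that fit is not given.

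**Figure D1:**
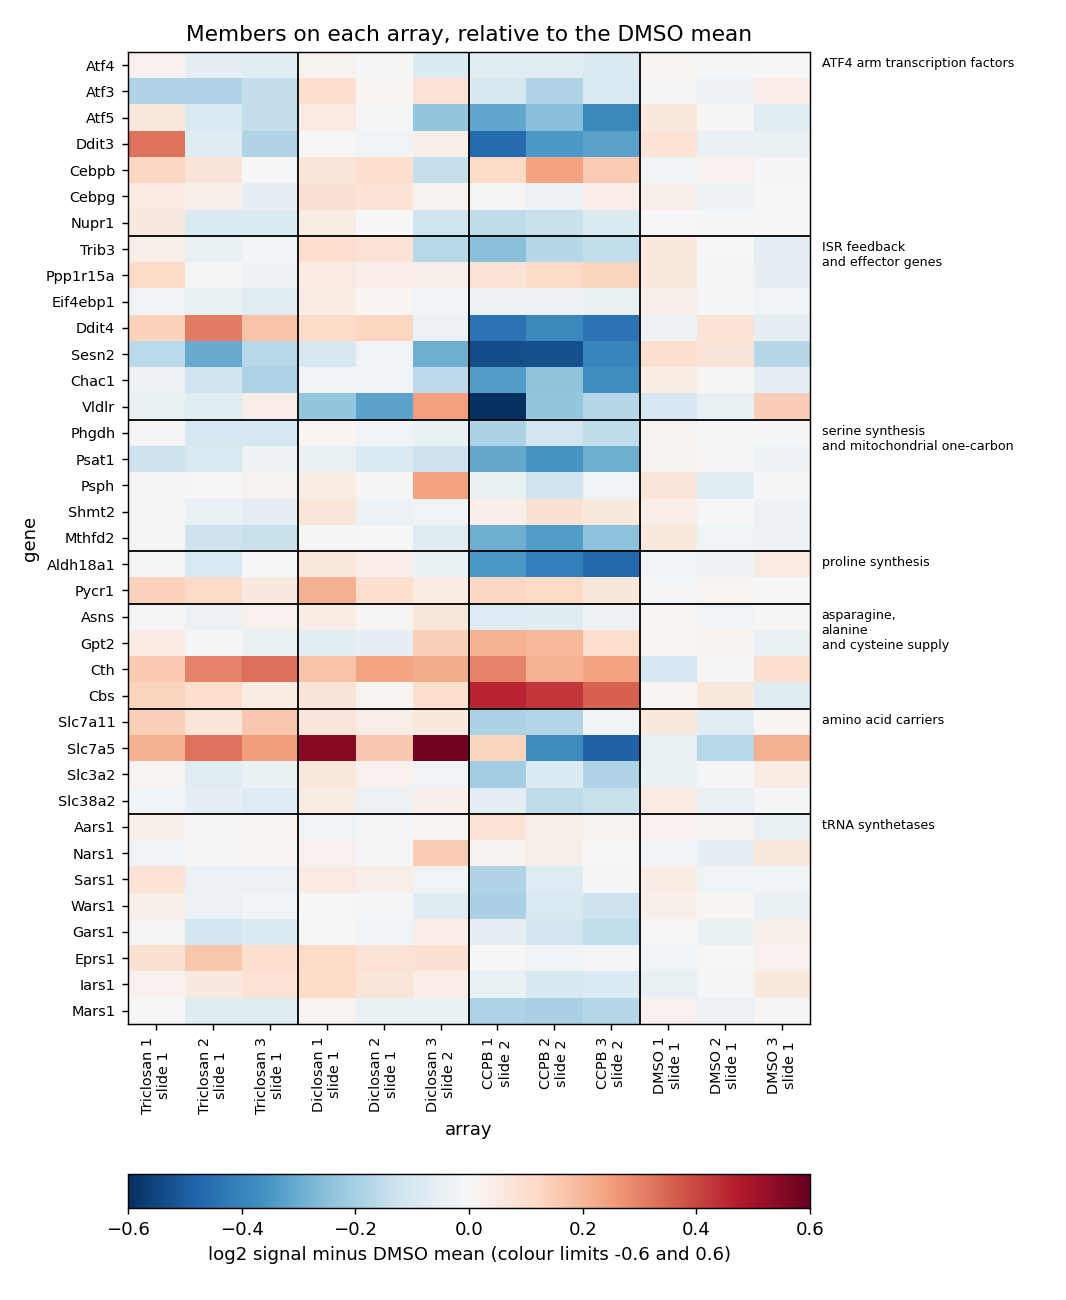
Scaled log2 level of each of the 37 members on each array minus the mean of the DMSO arrays, with arrays as columns (triclosan, diclosan, CCPB and DMSO, each with its slide), genes grouped by role and colour limits at -0.6 and 0.6. Ddit4, Sesn2, Psat1 and Aldh18a1 are blue in all 3 CCPB columns, Cbs is red there, and Cth is red in all 9 columns of exposed cells.

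The arrays can also be described without a model. In 12 of 37 members (32.4%) all 3 CCPB arrays were lower than all 9 other arrays, diclosan replicate 3 on their own slide included, beside 10.7% of all genes. They were Atf5, Ddit3, Ddit4, Sesn2, Chac1, Phgdh, Psat1, Mthfd2, Aldh18a1, Slc3a2, Wars1 and Mars1. The gap between the highest CCPB array and diclosan replicate 3 was 0.35 for Ddit3 and Ddit4, 0.30 for Aldh18a1, 0.17 for Mthfd2 and Psat1, and 0.02 for Atf5 and Wars1. In 1 member (2.7%), Cbs, all 3 CCPB arrays were higher than the other 9, beside 9.41% of all genes.

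Among the 7 transcription factors, 3 fell with CCPB (Ddit3, Atf5 and Atf3) and none rose, with a median difference of -0.12. That was 42.9% called, beside 28.2% of all genes. With the slide block the median was 0.01 and 1 of the 7, Cebpb, was called, higher with CCPB. Ddit3 encodes CHOP, a C/EBP-family factor that promotes cell death under lasting stress. Its levels were 5.14, 4.74 and 4.63 with triclosan, 4.81, 4.79 and 4.84 with diclosan, 4.35, 4.47 and 4.49 with CCPB and 4.89, 4.77 and 4.77 with DMSO. The CCPB arrays were below all others, and triclosan replicate 1 was the highest. CCPB differed from DMSO by -0.38 (interval -0.62 to -0.13, adjusted p = 0.0287), and with the slide block -0.42 (adjusted p = 0.328). The call was lost when any 1 of the 6 arrays was left out (adjusted p 0.0565 to 0.0886).

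Atf5, a relative of Atf4 that is likewise translated more when eIF2 is phosphorylated, had 7.69, 7.54 and 7.48 with triclosan, 7.68, 7.62 and 7.39 with diclosan, 7.32, 7.37 and 7.24 with CCPB and 7.69, 7.63 and 7.56 with DMSO. Diclosan replicate 3, on the slide of CCPB, was close to the highest CCPB array. The difference between CCPB and DMSO was -0.32 (interval -0.50 to -0.14, adjusted p = 0.0165). With the slide block it was -0.06 (adjusted p = 0.818). Diclosan replicate 3 differed by -0.25 from the mean of replicates 1 and 2. The call was lost without DMSO replicate 1 (adjusted p = 0.057) or CCPB replicate 3 (adjusted p = 0.0591). Atf3, given above, differed by -0.12 (adjusted p = 0.0425) and with the slide block by -0.16 (adjusted p = 0.285). Its call was lost when any 1 of the 6 arrays was left out (adjusted p 0.0626 to 0.14).

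The mRNA of Atf4 itself differed little. Its levels were 6.51, 6.43 and 6.42 with triclosan, 6.50, 6.47 and 6.40 with diclosan, 6.41, 6.41 and 6.39 with CCPB and 6.49, 6.47 and 6.48 with DMSO. All 3 CCPB arrays were below the DMSO arrays, but diclosan replicate 3 and triclosan replicates 2 and 3 were as low as the highest of them or nearly so. Against DMSO, CCPB differed by -0.07 (interval -0.15 to 0.01, adjusted p = 0.162), and with the block by 0.01. Nupr1, a small stress-induced chromatin protein, differed by -0.12 (adjusted p = 0.102, with the block 0.02) and Cebpg, a dimer partner of ATF4, by 0.00 (adjusted p = 0.947). Cebpb, a liver-enriched C/EBP factor that also dimerises with ATF4, was not called by group only and was called with the slide block, and it is described here after its values were seen. Cebpb had 3.92, 3.88 and 3.80 with triclosan, 3.87, 3.90 and 3.66 with diclosan, 3.92, 4.04 and 3.95 with CCPB and 3.78, 3.83 and 3.79 with DMSO. The difference between CCPB and DMSO was 0.17 (adjusted p = 0.0695), and with the block 0.40 (interval 0.22 to 0.57, adjusted p = 0.0328). It was also called with normexp background correction (adjusted p = 0.0293), with the replicate block (0.0497) and in a fit of CCPB and DMSO alone (0.031), but not with the replicate block and the slide together (0.0949). Diclosan replicate 3 differed by -0.22 from the mean of the other diclosan arrays.

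The 7 feedback and effector genes had the lowest median of the role groups, -0.32 between CCPB and DMSO. Of these genes 3 fell (Ddit4, Sesn2 and Chac1) and none rose, 42.9% called beside 28.2% of all genes. With the slide block the median of these 7 was -0.18, none passed, and the serine and one-carbon group was the lowest, at -0.22. Ddit4 encodes REDD1, an inhibitor of mTORC1. Its levels were 0.09, 0.26 and 0.13 with triclosan, 0.07, 0.09 and -0.08 with diclosan, -0.49, -0.43 and -0.49 with CCPB and -0.07, 0.04 and -0.10 with DMSO. The CCPB arrays were far below the rest, and the triclosan arrays were above the DMSO arrays. CCPB minus DMSO came to -0.42 (interval -0.56 to -0.29, adjusted p = 0.00114), a ratio of 0.745. The slide block gave -0.27 (interval -0.48 to -0.05, adjusted p = 0.175). Between triclosan and DMSO the difference was 0.21 (interval 0.07 to 0.34, adjusted p = 0.247).

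Sesn2, a leucine sensor that also restrains mTORC1, had -0.54, -0.67 and -0.54 with triclosan, -0.47, -0.40 and -0.67 with diclosan, -0.90, -0.90 and -0.77 with CCPB and -0.28, -0.30 and -0.55 with DMSO. The CCPB arrays were the lowest, while DMSO replicates 1 and 2 were the highest. The difference between CCPB and DMSO was -0.48 (interval -0.68 to -0.29, adjusted p = 0.00418), and with the block -0.25 (adjusted p = 0.394). Chac1, which breaks down glutathione and carries the promoter element shown above, had 0.38, 0.28 and 0.22 with triclosan, 0.38, 0.38 and 0.25 with diclosan, 0.07, 0.16 and 0.03 with CCPB and 0.45, 0.41 and 0.35 with DMSO. Every CCPB array was below every other array, with a difference from DMSO of -0.32 (interval -0.44 to -0.19, adjusted p = 0.00376) and of -0.18 with the block (adjusted p = 0.347).

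Trib3, a pseudokinase that ATF4 induces and that binds ATF4 in turn, had 2.89, 2.81 and 2.84 with triclosan, 2.95, 2.94 and 2.69 with diclosan, 2.60, 2.68 and 2.71 with CCPB and 2.91, 2.85 and 2.79 with DMSO. Diclosan replicate 3 lay among the CCPB arrays, and apart from it all arrays were above them. Between CCPB and DMSO the difference was -0.19 (interval -0.34 to -0.04, adjusted p = 0.0642), and the block turned its sign to 0.07 (adjusted p = 0.696). Ppp1r15a, the stress-induced subunit of the eIF2 phosphatase, also called GADD34, differed by 0.11 (adjusted p = 0.0883). For Eif4ebp1, a repressor of cap-dependent translation, the difference was -0.04 (adjusted p = 0.43). Vldlr, a lipoprotein receptor, varied widely, with -3.86, -3.39 and -3.33 with CCPB and -3.26, -3.20 and -3.01 with DMSO, a difference of -0.37 (adjusted p = 0.121).

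In serine synthesis and mitochondrial one-carbon metabolism 3 of 5 members fell with CCPB (Psat1, Mthfd2 and Phgdh), with a median of -0.15. That was 60% called, beside 28.2% of all genes. Psat1 is the aminotransferase of the serine pathway. It had 5.58, 5.62 and 5.68 with triclosan, 5.66, 5.63 and 5.58 with diclosan, 5.40, 5.35 and 5.42 with CCPB and 5.73, 5.72 and 5.68 with DMSO. The CCPB arrays formed a tight group below all 9 others. The difference between CCPB and DMSO was -0.32 (interval -0.40 to -0.24, adjusted p = 0.000385), a ratio of 0.802, and with the slide block -0.26 (interval -0.40 to -0.11, adjusted p = 0.0653).

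Mthfd2, a mitochondrial folate enzyme, had 3.30, 3.19 and 3.18 with triclosan, 3.32, 3.31 and 3.24 with diclosan, 3.02, 2.98 and 3.06 with CCPB and 3.37, 3.29 and 3.28 with DMSO. Again the CCPB arrays were the 3 lowest, with a difference from DMSO of -0.29 (interval -0.40 to -0.19, adjusted p = 0.00191) and of -0.22 with the block (adjusted p = 0.192). Phgdh, which takes the first step of the serine pathway, had 7.36, 7.25 and 7.25 with triclosan, 7.36, 7.34 and 7.32 with diclosan, 7.16, 7.24 and 7.20 with CCPB and 7.37, 7.34 and 7.34 with DMSO. The CCPB arrays were the lowest by a narrow margin. Phgdh differed by -0.15 between CCPB and DMSO (interval -0.24 to -0.07, adjusted p = 0.0167), and by -0.12 with the block (adjusted p = 0.412). Its call was lost without DMSO replicate 1 (adjusted p = 0.0555) or CCPB replicate 1 (adjusted p = 0.0583). Psph, the phosphatase that ends the pathway, differed by -0.06 (adjusted p = 0.488, with the block -0.28 and adjusted p = 0.0943), and Shmt2, which moves the serine carbon onto folate in mitochondria, by 0.06 (adjusted p = 0.281).

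Of the 2 proline enzymes Aldh18a1 fell with CCPB and Pycr1 did not pass the test. Aldh18a1, which makes the precursor of proline from glutamate, had 0.35, 0.27 and 0.36 with triclosan, 0.42, 0.40 and 0.32 with diclosan, 0.02, -0.05 and -0.11 with CCPB and 0.34, 0.33 and 0.41 with DMSO. All CCPB arrays were at or below 0.02 and all others at or above 0.27. The CCPB mean differed from the DMSO mean by -0.41 (interval -0.51 to -0.30, adjusted p = 0.000315), a ratio of 0.754, and with the block -0.32 (interval -0.49 to -0.14, adjusted p = 0.0628). Pycr1, which reduces that precursor to proline in mitochondria, differed by 0.10 (interval 0.00 to 0.20, adjusted p = 0.111).

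The asparagine, alanine and cysteine group went the other way, with a median of 0.21. Of its 4 members 2 rose with CCPB and none fell (50% called, beside 28.2% of all genes). Both that rose belong to transsulfuration, which turns homocysteine into cysteine. Cbs, which forms cystathionine, had 2.67, 2.64 and 2.58 with triclosan, 2.61, 2.55 and 2.63 with diclosan, 2.99, 2.96 and 2.89 with CCPB and 2.54, 2.59 and 2.46 with DMSO. The 3 CCPB arrays were above all others, including diclosan replicate 3 on the same slide. The difference between CCPB and DMSO was 0.41 (interval 0.31 to 0.51, adjusted p = 0.000295), a ratio of 1.33, and with the block 0.36 (interval 0.18 to 0.55, adjusted p = 0.0515).

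Cth, the next enzyme of that route, differed by 0.25 between CCPB and DMSO (interval 0.11 to 0.38, adjusted p = 0.0144), and by 0.23 with the block (adjusted p = 0.333). Its call was lost without CCPB replicate 1 (adjusted p = 0.0503). Asns, the asparagine synthetase and a much-used readout of ATF4, had 5.07, 5.04 and 5.10 with triclosan, 5.12, 5.08 and 5.14 with diclosan, 5.00, 5.00 and 5.05 with CCPB and 5.09, 5.05 and 5.08 with DMSO. The highest CCPB array lay just below the lowest DMSO array. Asns differed by -0.06 (interval -0.13 to 0.01, adjusted p = 0.189), and Gpt2, a mitochondrial alanine aminotransferase, by 0.17 (adjusted p = 0.0555, with the block -0.04).

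**Figure D2:**
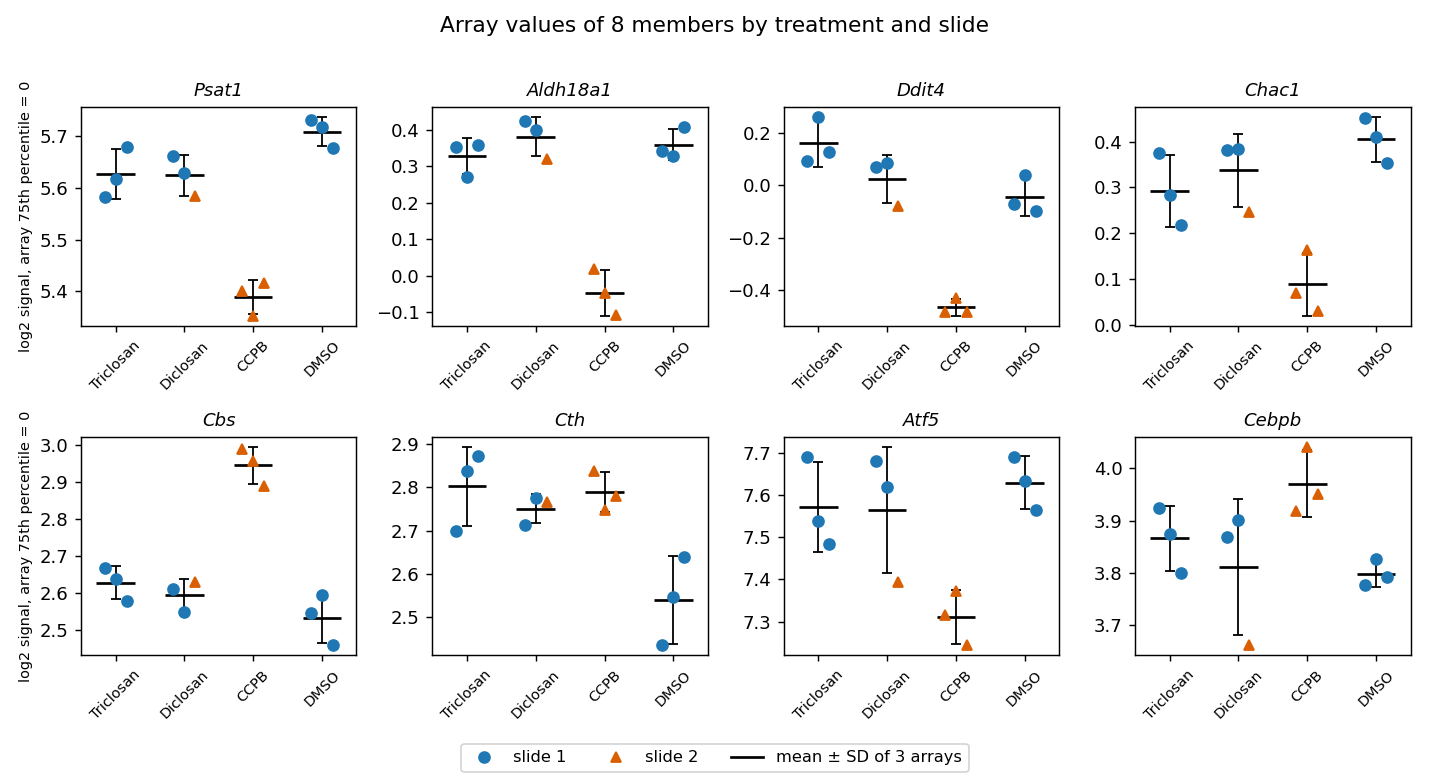
Scaled log2 level of 8 members by group (triclosan, diclosan, CCPB, DMSO), 1 point per array (circles slide 1, triangles slide 2), with the mean and SD of the 3 arrays as bars. In Psat1, Aldh18a1, Ddit4, Chac1 and Atf5 the CCPB points lie below all others and in Cbs above them, and in Atf5 the triangle of diclosan replicate 3 lies next to the CCPB points.

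Of the 4 amino acid carriers 1 fell with CCPB, Slc3a2, and the median was -0.14. That was 25% called, beside 28.2% of all genes. With the slide block none passed, beside 3.43% of all genes, and the median was -0.13. Slc3a2 is the heavy chain that carries Slc7a5 and Slc7a11 to the cell surface. It had 4.33, 4.25 and 4.28 with triclosan, 4.38, 4.34 and 4.29 with diclosan, 4.10, 4.23 and 4.13 with CCPB and 4.28, 4.31 and 4.36 with DMSO. The highest CCPB array came within 0.02 of the lowest array of the other groups. The difference was -0.16 (interval -0.26 to -0.06, adjusted p = 0.0243), and with the block -0.09 (adjusted p = 0.577). Its call was lost without DMSO replicate 2 (adjusted p = 0.0609) or 3 (0.0813), or CCPB replicate 1 (0.082) or 3 (0.0745).

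Slc7a11, which exchanges cystine for glutamate, had 1.19, 1.11 and 1.20 with triclosan, 1.12, 1.08 and 1.10 with diclosan, 0.85, 0.86 and 1.03 with CCPB and 1.10, 0.97 and 1.05 with DMSO. CCPB replicate 3 lay among the DMSO arrays. CCPB minus DMSO was -0.13 (interval -0.24 to -0.01, adjusted p = 0.0958), and its other probe gave 0.03. Slc7a5, the carrier of large neutral amino acids, varied widely between arrays, with -3.37, -3.26 and -3.33 with triclosan, -3.04, -3.42 and -3.01 with diclosan, -3.45, -3.97 and -4.07 with CCPB and -3.63, -3.75 and -3.37 with DMSO. Its difference between CCPB and DMSO was -0.24 (interval -0.62 to 0.13, adjusted p = 0.301). Slc38a2, an amino acid carrier that starvation induces, differed by -0.11 (adjusted p = 0.0654).

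Of the 8 tRNA synthetases, which load amino acids onto their tRNAs, 2 fell with CCPB (Mars1 and Wars1), and the median was -0.08. That was 25% called, beside 28.2% of all genes. With the slide block none of the 8 passed, beside 3.43% of all genes, and the median was -0.05. Mars1, the synthetase for methionine, had 4.90, 4.82 and 4.82 with triclosan, 4.91, 4.85 and 4.85 with diclosan, 4.71, 4.70 and 4.72 with CCPB and 4.92, 4.86 and 4.90 with DMSO. All CCPB arrays were below all others. Mars1 differed by -0.18 (interval -0.26 to -0.11, adjusted p = 0.00437), and with the block by -0.16 (adjusted p = 0.213). Wars1, for tryptophan, had 6.01, 5.94 and 5.96 with triclosan, 5.98, 5.97 and 5.90 with diclosan, 5.78, 5.89 and 5.85 with CCPB and 6.01, 5.99 and 5.94 with DMSO. The difference was -0.14 (interval -0.22 to -0.05, adjusted p = 0.0291), and with the block -0.07 (adjusted p = 0.654). The call of Wars1 was lost without DMSO replicate 1 (adjusted p = 0.0897) or 2 (0.0834), or CCPB replicate 1 (0.0968) or 3 (0.0629).

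Eprs1, which serves glutamate and proline, had 5.00, 5.07 and 5.01 with triclosan, 5.03, 5.00 and 5.00 with diclosan, 4.91, 4.89 and 4.90 with CCPB and 4.88, 4.91 and 4.93 with DMSO. Here the triclosan and diclosan arrays were above both the CCPB and the DMSO arrays, which overlapped. Between CCPB and DMSO it differed by -0.01 (adjusted p = 0.833). Iars1, for isoleucine, had 4.60, 4.63 and 4.66 with triclosan, 4.70, 4.65 and 4.62 with diclosan, 4.54, 4.48 and 4.49 with CCPB and 4.53, 4.56 and 4.63 with DMSO, and differed by -0.07 (adjusted p = 0.179). For Aars1, the alanine enzyme, the levels were 5.85, 5.81 and 5.84 with triclosan, 5.80, 5.81 and 5.84 with diclosan, 5.91, 5.86 and 5.84 with CCPB and 5.85, 5.84 and 5.78 with DMSO. The CCPB and DMSO arrays overlapped, with a difference of 0.05 (adjusted p = 0.309). The synthetases for asparagine, serine and glycine differed by 0.02 (Nars1), -0.09 (Sars1) and -0.11 (Gars1), none passing the test. Of the 8 measured members with the promoter element 2 were called, with a median of -0.10, and of the 25 whose window held no match 11 were called, with a median of -0.11. The other 4 measured members, 2 of them called, had no promoter entry.

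The 3 compounds were compared with each other at the same dose and time, and p-values were adjusted over all genes within each pair. Of the 3 pairs, triclosan against diclosan called 0 of 37 members, beside 0% of all genes, and 2 members had an unadjusted p under 0.05 (5.41%, against 6.81% of all genes). Their differences ran between -0.23 and 0.14, and again 36 of 37 intervals lay within 0.5 of 0. The lowest was Atf3, given above, and the highest Ddit4 (0.14, interval 0.00 to 0.27, adjusted p = 0.729). These intervals bound the difference, and do not show that triclosan and diclosan act alike.

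Triclosan against CCPB gave 12 members higher and 1 lower with triclosan, 35.1% of 37, beside 20.5% of all genes (9.49% higher and 11% lower). The median difference was 0.08, against 0.00 over all genes. Ddit4 differed most, by 0.63 (interval 0.49 to 0.77, adjusted p = 0.000271), and with the slide block by 0.47 (adjusted p = 0.052). Aldh18a1 differed by 0.37 (interval 0.27 to 0.48, adjusted p = 0.000911), Psat1 by 0.24 (adjusted p = 0.00322) and Slc7a11 by 0.25 (adjusted p = 0.0111). The other probe of Slc7a11 differed by 0.00, and the mean of its probes gave 0.13 (adjusted p = 0.102), so that this call rests on the probe used. Cbs, the member lower with triclosan, differed by -0.32 (adjusted p = 0.00214). These 5 calls remained whichever of the 6 arrays was left out. The other 8 calls were Atf5, Ddit3, Chac1, Mthfd2, Wars1, Eprs1, Iars1 and Mars1, with differences of 0.13 to 0.40. Atf5, Wars1 and Iars1 lost the call when any 1 of the 6 arrays was left out (adjusted p 0.0576 to 0.134). Ddit3 lost it when any 1 of the CCPB arrays was left out (0.0607 to 0.0917), and Mthfd2 without CCPB replicate 2 (0.0595). Chac1 lost it without triclosan replicate 1 or 2 or CCPB replicate 1 or 3 (0.0755 to 0.104). Eprs1 lost it without triclosan replicate 2 or any 1 of the CCPB arrays (0.0513 to 0.0699), and Mars1 without triclosan replicate 1 or any 1 of the CCPB arrays (0.0521 to 0.0699). With the slide block limma called 0 of 37 members, beside 1.41% of all genes, and 9 had an unadjusted p under 0.05 (15.1% of all genes). All 13 kept their sign, and their median absolute difference was 0.24 by group only and 0.13 with the block. For Atf5 the difference was 0.26 by group only and 0.01 with the block. Triclosan and CCPB share no slide, so that the block value again rests on the diclosan arrays. With normexp the split was 13 higher and 4 lower, beside 2179 and 2902 of all genes. With each array centred on its median it was 2 higher and 1 lower, beside 847 and 1528 of all 20372 genes. The members were then called less often than all genes. Among all calls 35.7% were higher there, and 46.3% with the 75th percentile.

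Of the pairs with CCPB, diclosan against CCPB is the only one that shares a slide. Here 15 members were higher and 1 lower with diclosan, 43.2% of 37, beside 14.3% of all genes (8.05% higher and 6.26% lower), with a median of 0.12 against 0.00. With the slide block, which sets the CCPB arrays against diclosan replicate 3, the count was 5 of 37 (13.5%), beside 4.95% of all genes. Of the 16 calls 3 passed in both fits, all 16 kept their sign, and the median absolute difference of the 16 was 0.24 without and 0.19 with the block. The 3 were Aldh18a1, Ddit4 and Cbs. Aldh18a1 differed by 0.43 (interval 0.33 to 0.53, adjusted p = 0.00039), and within slide 2 by 0.37 (interval 0.23 to 0.50, adjusted p = 0.0116). Ddit4 differed by 0.49 (interval 0.36 to 0.63, adjusted p = 0.000843), and within slide 2 by 0.39 (interval 0.22 to 0.56, adjusted p = 0.0214). Cbs, lower with diclosan, differed by -0.35 (adjusted p = 0.00122), and within slide 2 by -0.32 (interval -0.46 to -0.17, adjusted p = 0.0279). The within-slide values rest on 1 diclosan array, which is assumed to vary like the others. Fitted with limma on slide 2 alone, these 3 differences were 0.37, 0.39 and -0.32. They equal the block values by construction, since both fits set the CCPB arrays against diclosan replicate 3. The fit on slide 2 holds 1 diclosan array, so a count of calls from it is not a result about the members.

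The members called between diclosan and CCPB only with the block were Psph and Cebpb, named after their values were seen. Psph had 1.72, 1.73 and 1.75 with triclosan, 1.77, 1.73 and 1.96 with diclosan, 1.69, 1.61 and 1.70 with CCPB and 1.80, 1.65 and 1.72 with DMSO, so that diclosan replicate 3 was the highest array. Its difference was 0.16 without and 0.30 with the block (adjusted p = 0.0257). For Cebpb the difference was -0.16 without and -0.31 with the block (adjusted p = 0.0257). Psat1 differed by 0.23 (adjusted p = 0.00336, with the block 0.0619), Mthfd2 by 0.27 (adjusted p = 0.00486, with the block 0.0911) and Atf3 by 0.19 (adjusted p = 0.0115, with the block 0.0655). Together with Aldh18a1, Ddit4 and Cbs, these calls remained whichever array was left out.

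The other 10 calls between diclosan and CCPB were Ddit3, Sesn2, Chac1, Phgdh, Slc7a11, Slc7a5, Slc3a2, Eprs1, Iars1 and Mars1. All 10 were lost without diclosan replicate 1 (adjusted p 0.0507 for Mars1 to 0.145 for Eprs1). Apart from Mars1 and Slc7a5, they were also lost without diclosan replicate 2 (0.0642 to 0.101) and without at least 2 of the CCPB arrays in turn (0.0554 to 0.135). Without diclosan replicate 3, Ddit3 (0.0626) and Slc7a11 (0.052) were lost. The widest of them was Slc7a5, at 0.67 (interval 0.30 to 1.05, adjusted p = 0.0257), lost without diclosan replicate 1 (adjusted p = 0.0927) or CCPB replicate 2 (0.0892) or 3 (0.0912). Mars1 was lost only without diclosan replicate 1 (adjusted p = 0.0507). The number of members called was 6 without diclosan replicate 1, 8 without replicate 2, 19 without replicate 3, and 9 without any 1 of the CCPB arrays. The share of all genes called in these refits is not given, so the counts are not a result about the members. With arrays centred on their median the split was 3 higher and 1 lower, beside 752 higher and 618 lower of all 20372 genes. The other probe of Slc7a11 differed by -0.09, opposite in sign to the 0.19 of the probe used, and the mean of its probes gave 0.05 (adjusted p = 0.569).

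**Figure D3:**
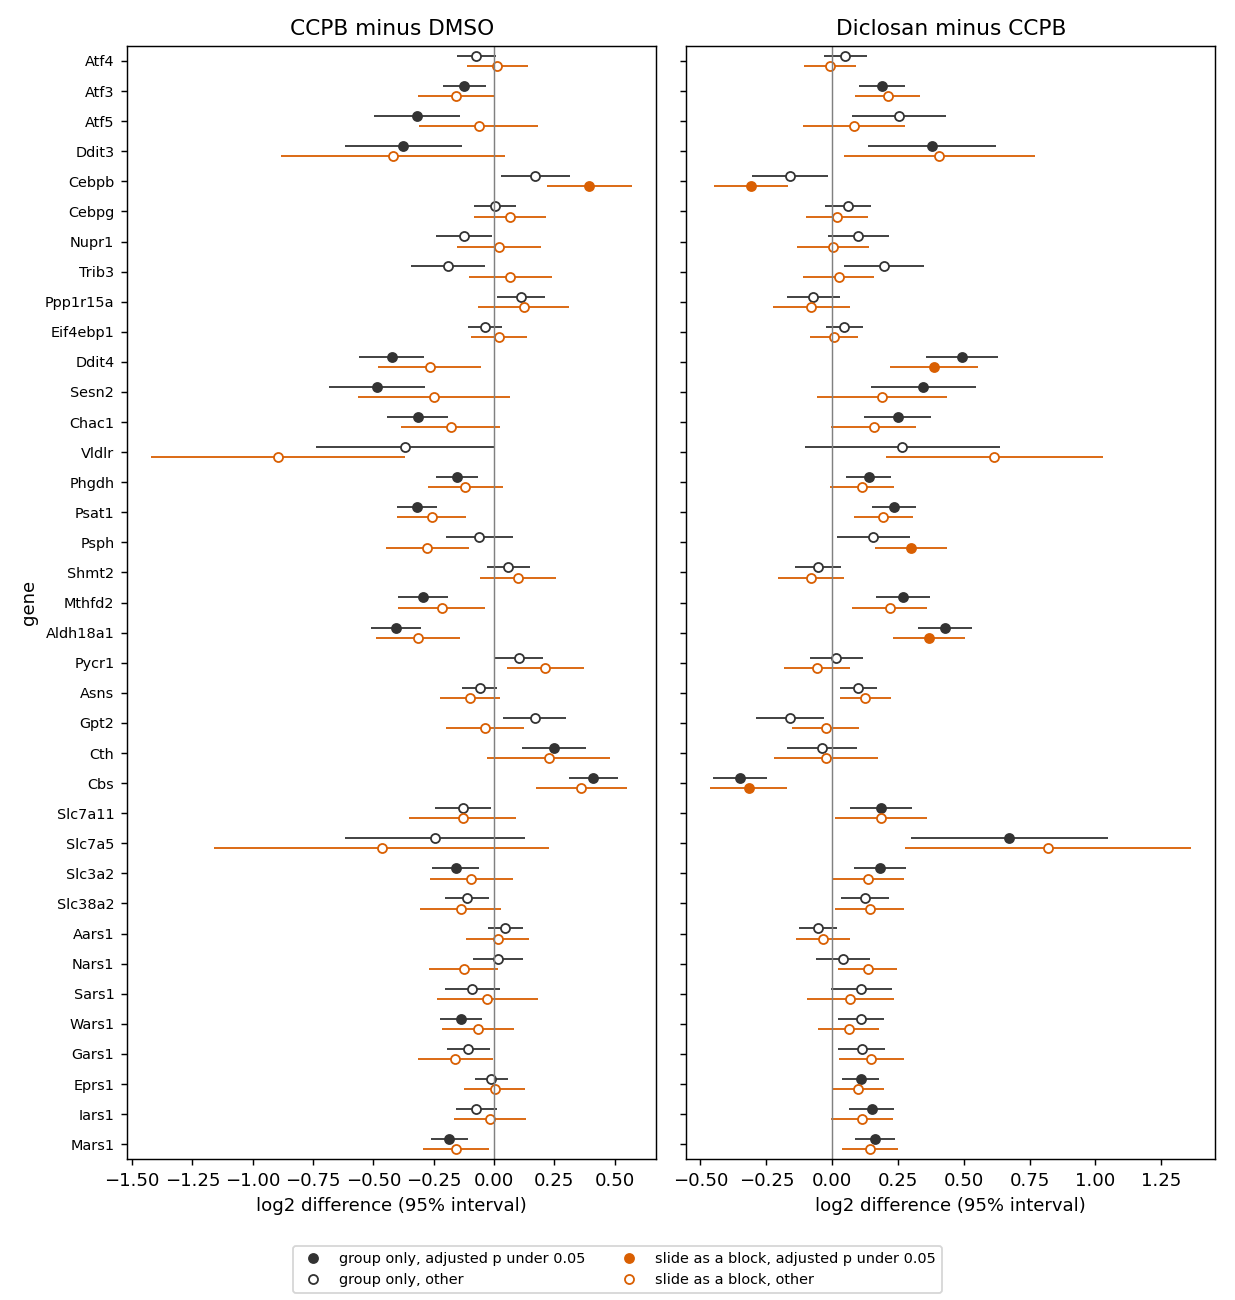
Log2 difference of each member with its 95% interval, CCPB minus DMSO on the left and diclosan minus CCPB on the right, by group only (black) and with the slide as a block (orange), with filled points where the adjusted p was under 0.05. Aldh18a1, Ddit4 and Cbs are filled in both fits between diclosan and CCPB, and between CCPB and DMSO the orange intervals are wider and Cebpb is the only filled orange point.

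The rest of the pathway was read from lists of non-members, and 0 genes of these lists were called between triclosan and DMSO, diclosan and DMSO, or triclosan and diclosan. At an unadjusted p under 0.05 limma gave 10, 14 and 2 of the 68 measured genes, beside 11.6%, 10.6% and 6.81% of all genes. Between CCPB and DMSO the 14 genes of the eIF2 kinases and eIF2 machinery had 1 that rose and 1 that fell. That was 14.3% called, below the 28.2% of all genes, and the median was 0.03. Ppp1r15b, the constitutive subunit of the eIF2 phosphatase, rose by 0.15 (adjusted p = 0.012, with the block 0.25 and adjusted p = 0.036). Eif2ak4, the kinase GCN2 that senses uncharged tRNA, fell by 0.23 (adjusted p = 0.0036, with the block adjusted p = 0.18). Among the other cytosolic synthetases Lars1, for leucine, fell by 0.21 (adjusted p = 0.0018, with the block adjusted p = 0.097).

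Of 9 measured other serine, glycine and folate enzymes 2 rose and 2 fell with CCPB (44.4% called, beside 28.2% of all genes). Aldh1l1, a cytosolic folate enzyme abundant in liver, rose by 0.33 (adjusted p = 0.00042, with the block 0.40 and adjusted p = 0.016). Mthfd1l, which releases formate in mitochondria, fell by 0.22 (adjusted p = 0.0058, with the block -0.15 and adjusted p = 0.33). Among the other proline and ornithine enzymes Oat, the ornithine aminotransferase, fell by 0.18 (adjusted p = 0.013, with the block -0.17 and adjusted p = 0.29). Of 11 measured other amino acid carriers 2 rose and 3 fell (45.5% called, beside 28.2% of all genes). Slc7a2, a carrier of cationic amino acids in liver, rose by 0.66 (adjusted p = 3.9e-05, with the block 0.50 and adjusted p = 0.0084). Between diclosan and CCPB Slc7a2 differed by -0.55, and with the block by -0.44 (adjusted p = 0.0038).

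The ATF6 and XBP1 arm of the unfolded protein response runs beside the ATF4 arm. Of its 17 measured genes 8 fell with CCPB and 2 rose (58.8% called), with a median of -0.12. Over all genes 14% fell and 14.2% rose. Creld2, a stress-induced protein of the endoplasmic reticulum, fell by 0.49 (adjusted p = 0.0009), Sel1l, part of the degradation machinery there, by 0.42 (adjusted p = 0.00083), and Sdf2l1 by 0.39 (adjusted p = 0.0029). With the block 0 of the 17 passed limma's test against DMSO, beside 3.43% of all genes. At an unadjusted p under 0.05 there were 2 of the 17, beside 18% of all genes. Between diclosan and CCPB 11 of the 17 were higher with diclosan and none lower, beside 8.05% and 6.26% of all genes. With the block 4.95% of all genes passed, and 2 of the 17. These were Creld2 (0.46, adjusted p = 0.018) and Sel1l (0.40, adjusted p = 0.019).

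**Figure D4:**
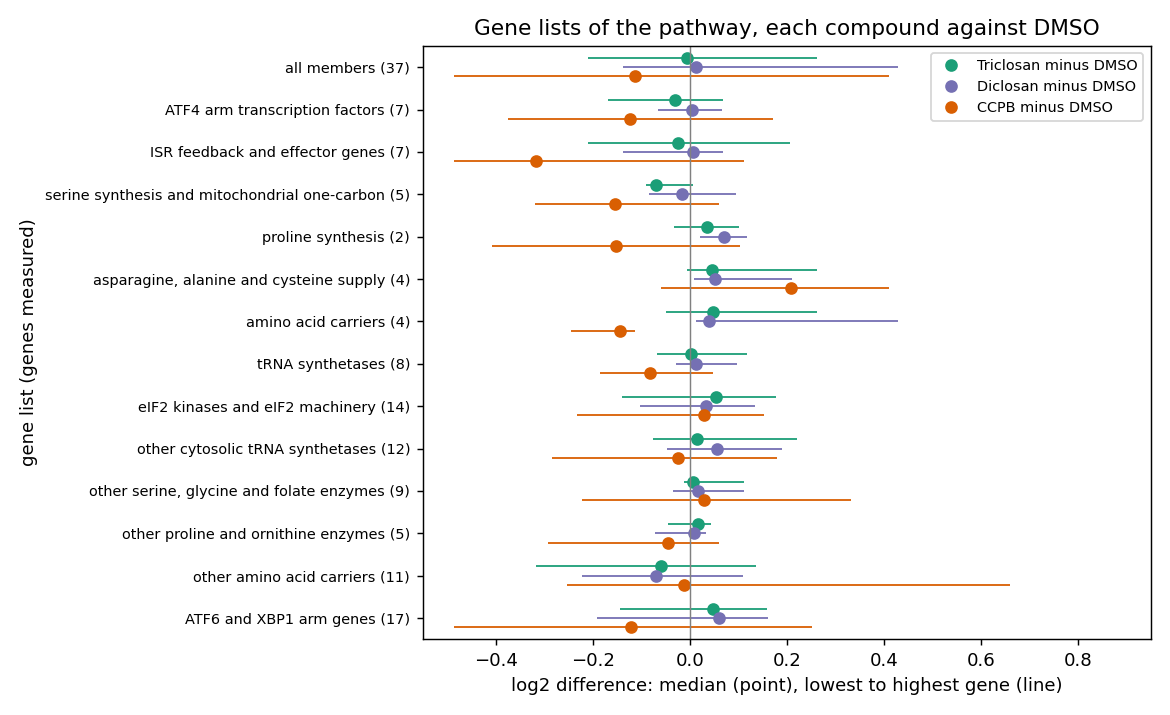
Log2 difference of each compound from DMSO for the role groups and the other lists of the pathway, with the median as a point and the lowest to highest gene as a line. Differences are by group only. For CCPB the median of the feedback and effector genes is -0.32 (with the slide block -0.18) and that of the asparagine, alanine and cysteine group 0.21 (with the block 0.10), and for triclosan and diclosan every median lies close to 0.

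Markers of the liver's cell types also differed between the groups, given as the summed linear signal relative to the 75th percentile. The sum of the 6 measured of 10 stellate cell and fibroblast markers was 12.7 to 13.7 with triclosan, 12.8 to 14.8 with diclosan, 9.07 to 10.1 with CCPB and 14.1 to 15.3 with DMSO, and Lrat, Dcn, Lum and Pdgfrb were not among the genes tested. The CCPB arrays were the lowest. Tagln, a smooth-muscle actin-binding protein, made up 78.9% to 89.2% of that sum on every array and fell by 0.72 with CCPB (adjusted p = 0.00014, with the block -0.59 and adjusted p = 0.037). Acta2, smooth-muscle actin, rose by 0.42 (adjusted p = 0.035, with the block 0.29 and adjusted p = 0.57), and the other 4 did not pass the test. The median difference of the 6 was -0.13, and 0.10 with the block. For 4 of 8 cholangiocyte markers it was 2.86 to 3.31 with triclosan, 2.88 to 3.14 with diclosan, 3.53 to 3.63 with CCPB and 2.89 to 3.07 with DMSO, so that the CCPB arrays were the highest, with Krt19, Spp1 and Cftr among those not tested. Among them Epcam rose by 0.33 (adjusted p = 0.0095) and Sox9 by 0.28 (adjusted p = 0.02), and neither passed with the block. The 12 hepatocyte markers summed to 2902 to 3059 with triclosan, 2929 to 3019 with diclosan, 3113 to 3180 with CCPB and 2988 to 3098 with DMSO. For 4 of 8 endothelial markers the sum was 7.58 to 8.15 with triclosan and 8.08 to 9.72 with diclosan. It was 9.51 to 9.85 with CCPB and 8.16 to 8.61 with DMSO. Pecam1, Stab2, Lyve1 and Clec4g were not tested. Vwf made up most of that sum, with scaled levels of 3.05, 2.96 and 3.24 with diclosan and 3.25, 3.20 and 3.19 with CCPB. Diclosan replicate 3, on the slide of CCPB, was thus level with the CCPB arrays. For 4 of 11 macrophage markers the sum was 0.772 to 1.03 with triclosan, 1.03 to 1.2 with diclosan, 0.93 to 1.05 with CCPB and 0.719 to 0.997 with DMSO, and the defining markers Adgre1, Csf1r and Ptprc were not among the genes tested. The part of these cells in the members' results was not tested.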

How the data were processed

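Transcripts were measured on 12 one-colour Agilent arrays, 3 per group. Per the file headers, the deposited files hold the intensity of each spot from Agilent Feature Extraction 10.7.1.1, linear, background-subtracted and detrended, with no scaling between arrays. The value table deposited by the authors gives a linear signal for each probe, with a 75th percentile of 0.9995 to 1 on each array. It correlated with the log2 scanner values at 0.999939 to 0.999974 and served as an alternative. Columns of other samples numbered 0.

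Groups came from the sample labels. Spots that were non-uniform or population outliers (275 to 368 of 58717 per array) were left out, and 0 were saturated. Spots of a probe were averaged as log2 intensity and the array's 75th percentile was subtracted. Per array 51.7% to 55.6% of 45598 probes were well above background, and the number of arrays limits the precision. A probe was kept when above background (at least 0.5 of its spots) on all 3 arrays of a group. Names came from accessions matched to a RefSeq table (GRCr8, names only), for 21218 probes, with 24361 unnamed. The brightest kept probe stood for a gene. Of the members 15 had 2 kept probes, which had the same sign between CCPB and DMSO in 14, the exception being Slc7a11.

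All arrays were fitted by group with limma 3.58.1 in R 4.3.3 (data.table version 1.17.8), 6 comparisons, two-sided, called at a Benjamini-Hochberg adjusted p under 0.05. Scripts were tested on simulated data. Alternatives were the slide and the replicate number as blocks, other scalings, filters and probe rules, the compared groups alone, and each array left out. Normexp used the median spot signal with an offset of 50. Same-numbered arrays of different groups were not paired: of 18 correlations of their residuals (-0.165 to 0.117), 1 was over 0.1.

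Array values are given, per role group, for up to 4 called members with the smallest p, and for Atf4, Ddit3, Trib3, Chac1, Asns, Psat1, Slc7a11 and Aars1. Of each other list up to 3 called genes are named. Some genes that met this rule are not reported here. The members, lists and rules were chosen with earlier results of these data known.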

Additional observations from a re-analysis of the deposited data

How the results depend on the processing

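The counts of members called were 15 for CCPB against DMSO, 13 for triclosan against CCPB and 16 for diclosan against CCPB, and the other 3 comparisons called 0 under every alternative run. With arrays centred on their median the counts were 8, 3 and 4. For triclosan against CCPB that share was below the share over all genes, of which 847 were higher and 1528 lower. Without the filter on dim probes the counts were 8, 4 and 5. With the slide as a block they were 1, 0 and 5, and with the replicate block and the slide together 0, 0 and 3. With the replicate block alone they were 17, 11 and 15, so that the pairing by replicate number, which the residuals did not bear out, changed none by over 1.5 times. Fitted on the compared groups alone, diclosan against CCPB called 6, and on 1 slide alone 0. Leaving out 1 array gave 10 to 13 for CCPB against DMSO, 6 to 10 for triclosan against CCPB and 6 to 19 for diclosan against CCPB. Shares over all genes are given above for the slide block and for median centring. They are not given for the filter, replicate-block, compared-group and leave-out counts, which are therefore not a result about the members. The authors' table, the mean of a gene's probes, quantile normalization, normexp, a stricter filter and keeping outlier spots (added after seeing the data) left each count within 1.5 times, and no called value changed sign. All 37 members were above background on all 12 arrays. Vldlr and Slc7a5 had the widest intervals, and the cause was not tested.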
